A study of Homo sapiens with 18 samples.

Results

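The MAF family members described here are 4 genes, MAF, MAFF, MAFG and MAFK, of the 58051 genes counted in each library. They were chosen by family name, from a series whose levels in all 6 groups were already known, so their own levels and changes are given as a description with no test. RNA-seq was run on THP-1, a human acute monocytic leukaemia cell line that becomes adherent and macrophage-like under the phorbol ester PMA. Cells carried 1 of 3 retroviral MSCV-GFP constructs and were sorted for GFP: IRES, the vector alone; NIC1, the MYC-tagged intracellular part of NOTCH1, which is the signalling form of that receptor; or DNMAML, a dominant-negative Mastermind-like protein that blocks transcription by the Notch complex. Every group had 48 h of PMA at 5 ng/ml, and each construct was then measured unstimulated or after IL-4 at 20 ng/ml for 3 h. Each of the 6 groups had 3 libraries, numbered by experiment 1, 2 and 3, and all of them came from the same cell line with expression driven by the vector. The series asked how raised and lowered Notch signalling act in IL-4-stimulated cells.

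MAF proteins are basic leucine zipper (bZIP) transcription factors that bind MAF recognition elements (MAREs) in DNA. Large members such as MAF (also called c-MAF) carry an activation domain, and in macrophages MAF is known for holding cells in a differentiated, non-dividing state and for activating IL10. The small members, MAFF, MAFG and MAFK, lack that domain: paired with each other they occupy sites without activating, and paired with NFE2-type factors such as NFE2L2 (NRF2) or with the repressors BACH1 and BACH2 they act on antioxidant response elements (AREs) at stress genes.

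The constructs could be read in their own transcripts. NOTCH1 stood at 287 ± 55.3 CPM (a read count scaled to library size; SD, n = 3) in unstimulated NIC1 cells and 188 ± 40.5 in IRES, and MAML1 at 131 ± 8.08 in DNMAML against 88.9 ± 9.32 in IRES. Libraries of the construct and of IRES did not overlap in either case, nor did they with IL-4. The Notch target HES4 lay between 12.02 and 18.5 CPM in unstimulated NIC1 libraries and between 2.03 and 4.55 in IRES. Gene counts per library ran from 12410668 to 15099788. Unstimulated IRES replicate 3 and IL-4-treated DNMAML replicate 3 stood apart in the number of genes detected (23179 and 25322, against 21067 to 21557 in the others). Of 10 monocyte and macrophage markers, 8 were at 10 CPM or more in every library, while CD14 (1.59 to 9.26 CPM) and CD68 (0.401 to 1.60) were low. Of 8 T cell markers, CD2, CD3E, CD8A and CD5 stayed under 1 CPM, yet the summed list moved with the NIC1 construct: 114 to 159.5 CPM in NIC1 libraries and 76.2 to 106 in the others, almost all of it TRAC and CD3D. The summed B cell marker list lay at 13.4 to 17.8 CPM in NIC1 libraries with IL-4, above the 9.19 to 13.2 in DNMAML, and at 15.2 to 20.9 without IL-4, against 10.2 to 17.4. IRES overlapped NIC1 in this list, at 9.39 to 14.1 CPM with IL-4 and 10.2 to 15.9 without. The summed erythroid and megakaryocyte list was lower in unstimulated DNMAML (0.527 to 0.952 CPM) than in IRES (1.15 to 1.60) and NIC1 (1.11 to 2.32). The part of these markers in the construct results was not tested.

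MAF (ENSG00000178573) lies on the minus strand of chromosome 16 at 79585843 to 79600714 (GRCh38, GENCODE 29), and no annotated gene overlaps it. MAFF (ENSG00000185022) lies on the plus strand of chromosome 22 at 38200767 to 38216511 and overlaps PLA2G6 on the opposite strand (138 to 245 counts per library). MAFG (ENSG00000197063) lies on the minus strand of chromosome 17 at 81918270 to 81927714 and overlaps SIRT7 on the same strand (239 to 434 counts). MAFK (ENSG00000198517) lies on the plus strand of chromosome 7 at 1530714 to 1543043 and overlaps the end of TMEM184A on the opposite strand (8 to 44 counts). Whether counting used strand, and how reads in an overlap were assigned, is not given in the sources used here. For MAFG and SIRT7, on the same strand, the strand option would not separate them. What the overlaps do to these counts was not tested.

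The upstream sequences of MAF and MAFF are shown because these are the members whose means were highest in NIC1 both without and with IL-4. They come from the RefSeq promoter windows on GRCh38.p14, which hold MAF, MAFF and MAFG, and they stop before the first base of any annotated coding transcript. The MAF stretch is chr16:79600738-79600987 on the minus strand, and the MAFF stretch is chr22:38201744-38201881 on the plus strand, each written 5′ to 3′. The MAFF stretch lies before the first coding transcript but inside the annotated gene, which opens further upstream with a transcript annotated as a retained intron. MAFF has a second RefSeq window, chr22:38202770-38203019, which is not printed. Capitals mark matches to the motifs searched.
MAF upstream: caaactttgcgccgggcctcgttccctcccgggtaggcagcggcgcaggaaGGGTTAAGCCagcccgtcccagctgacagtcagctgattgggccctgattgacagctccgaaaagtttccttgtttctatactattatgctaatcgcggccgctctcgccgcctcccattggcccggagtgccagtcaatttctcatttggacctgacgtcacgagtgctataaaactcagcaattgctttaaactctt
MAFF upstream: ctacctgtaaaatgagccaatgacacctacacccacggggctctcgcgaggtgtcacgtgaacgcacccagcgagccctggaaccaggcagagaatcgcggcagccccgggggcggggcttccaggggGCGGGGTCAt
The motifs below were searched on both strands of the 250 bases before each start. The RBPJ site (GTGGGAA), the site of the DNA-binding partner of Notch, was found in 5.43% of all 35116 windows and in none of the members' windows. Nor did the STAT6 site (TTCNNNNGAA, 5.38% of windows) or the AP-1 site (TGANTCA, 6.57%) occur there. MAFF had the antioxidant response element core (TGACNNNGC, 10.9% of windows) on the minus strand, 122 bases before the start that follows the full window (to 38201993), which is the stretch in capitals. The capitals in MAF match the loose NF-kappaB pattern GGGNNNNNCC, which 54.4% of windows hold. MAFF matched it too, with 1 match in the first window, past the printed stretch, and 5 in the second, where the stretch GGGCCGCCCC matched on both strands and was counted for each. The MAFG window held none of the patterns. A match is a run of letters and not a measured site.

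MAF itself followed the construct. In unstimulated cells MAF was at 9.51, 11.3 and 16.1 CPM in the IRES libraries of experiments 1, 2 and 3. In NIC1 it was at 25.3, 25.5 and 27.4 CPM, and in DNMAML at 4.26, 6.15 and 5.34 CPM. After IL-4 the values were 8.08, 8.64 and 12.98 CPM in IRES, 16.4, 18.7 and 24.6 in NIC1, and 3.06, 4.73 and 5.39 in DNMAML. All 6 NIC1 libraries lay above all 6 IRES libraries, which all lay above the 6 DNMAML libraries. The narrowest gap was between unstimulated IRES of experiment 3 at 16.06 CPM and IL-4-treated NIC1 of experiment 1 at 16.39. The 8.95-fold range of MAF across libraries compared with 3.53-fold for MAFF, 1.80-fold for MAFK and 1.25-fold for MAFG.

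**Figure D1:**
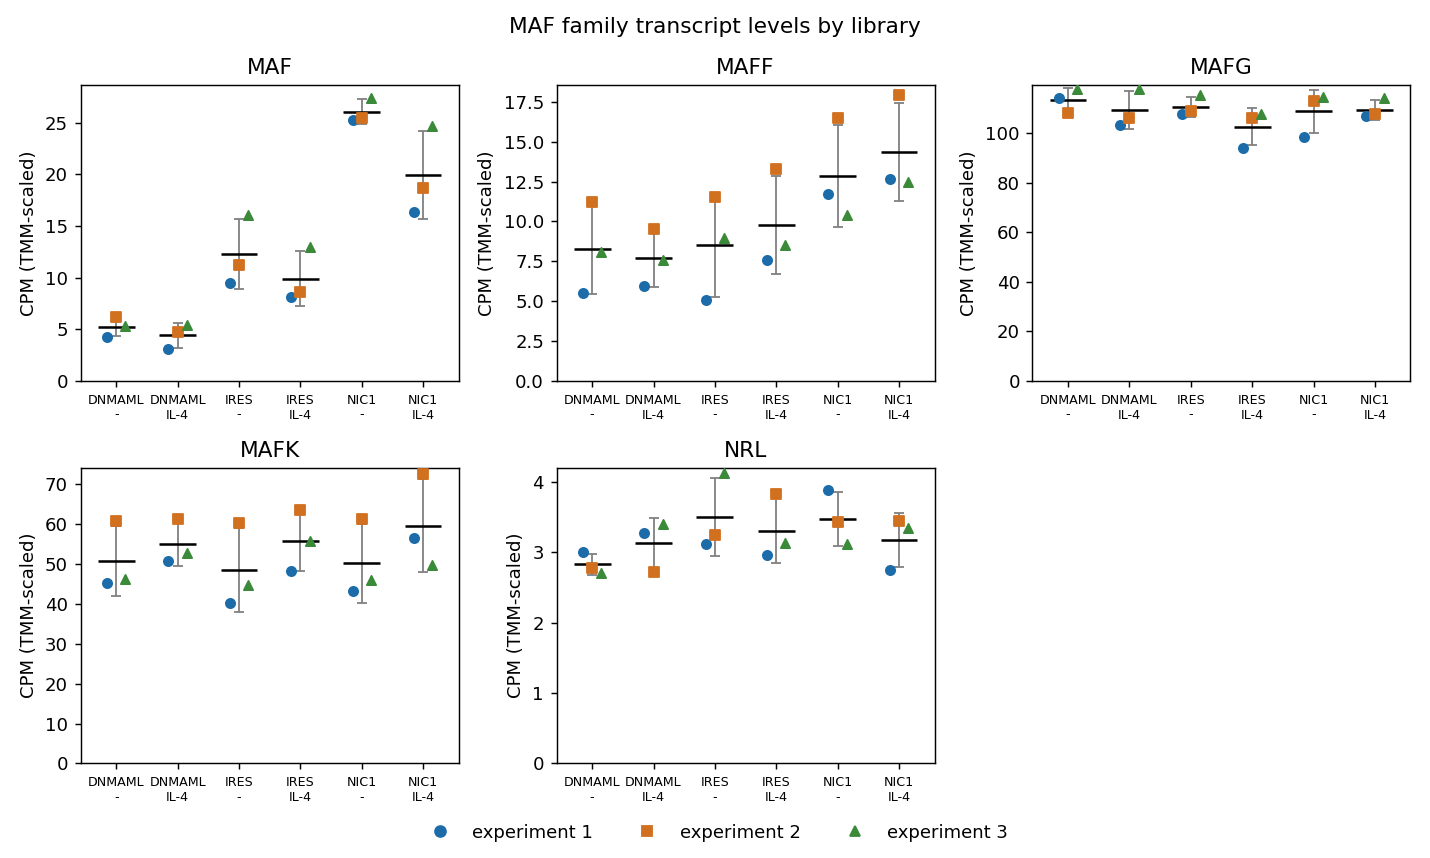
Levels of MAF, MAFF, MAFG, MAFK and NRL in CPM (vertical axes, from 0) in each of the 18 libraries, by group (a dash marks unstimulated cells). Symbols show the experiment, black lines the mean and grey bars the SD of 3 libraries; MAF steps up from DNMAML to IRES to NIC1 (5.25, 12.3 and 26.1 CPM unstimulated), MAFG does not, and MAFF and MAFK are highest in experiment 2 of every group.

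By group mean, MAF ordered as IL-4-treated DNMAML (4.40 ± 1.20 CPM, SD, n = 3), unstimulated DNMAML (5.25 ± 0.946), IL-4-treated IRES (9.90 ± 2.68), unstimulated IRES (12.3 ± 3.39), IL-4-treated NIC1 (19.9 ± 4.25) and unstimulated NIC1 (26.1 ± 1.20). Neighbours in that order overlapped within DNMAML and within IRES when the pairing by experiment was left aside. Within experiments 1, 2 and 3, MAF differed with IL-4 by -0.23, -0.38 and -0.30 on the log2 scale in IRES. In DNMAML these differences were -0.46, -0.37 and 0.013. The NIC1 pair did not overlap, but only by the distance from 24.63 to 25.25 CPM.

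The fitted log2 change of MAF between NIC1 and DNMAML was 2.31 ± 0.25 (SE) without IL-4 and 2.18 ± 0.25 with it, that is 4.96-fold and 4.52-fold. Within experiments 1, 2 and 3 it was 2.53, 2.03 and 2.33 without IL-4, and 2.36, 1.95 and 2.16 with it. Against IRES, MAF in NIC1 differed by 1.09 ± 0.23 and 1.01 ± 0.24 (2.12-fold and 2.01-fold), and MAF in DNMAML by -1.22 ± 0.25 and -1.17 ± 0.25, without and with IL-4. These comparisons share libraries. In all 3 experiments the difference had the same sign in each of the 6 construct comparisons. The smallest size was 0.77, NIC1 against IRES in experiment 3 without IL-4.

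MAF was called at an adjusted p under 0.05 (edgeR's quasi-likelihood test) in both comparisons of NIC1 with DNMAML and in no other. Across all 15037 genes tested, 1.65% were called in that comparison without IL-4 and 1.44% with it. For NIC1 against IRES the shares were 0.233% and 0.200%. For DNMAML against IRES they were 0 and 0, where 371 and 357 genes had an unadjusted p under 0.05 and DESeq2 called 2 genes and 1. In a second model that takes the experiment number as a block, MAF was called in all 6 construct comparisons, over shares of 5.37% and 5.44% (NIC1 against IRES), 0.146% and 0.0931% (DNMAML against IRES), and 13.8% and 12.6% (NIC1 against DNMAML). MAF was thus among the 22 and 14 genes called between DNMAML and IRES under the block. Since the members were chosen with these contrasts known, nothing is read from the shares.

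**Figure D2:**
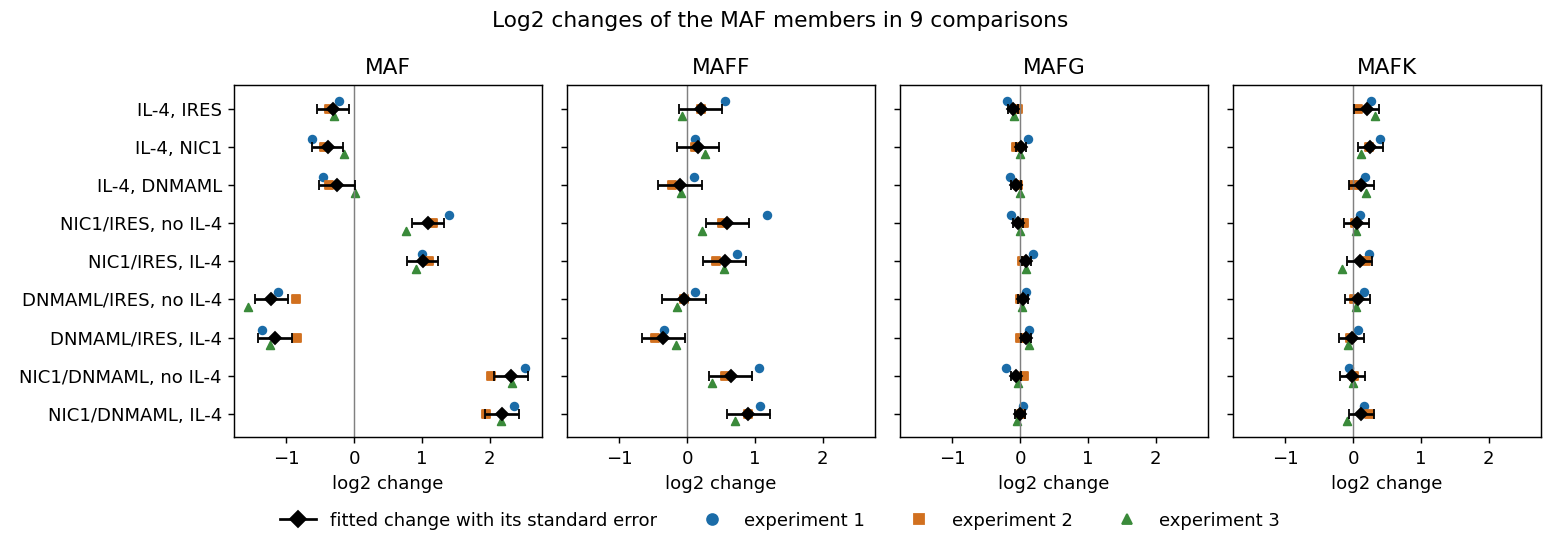
Log2 change (horizontal axes) of MAF, MAFF, MAFG and MAFK in 9 comparisons (rows; a slash puts the first construct over the second), as the fitted change with its standard error (black) and as the difference within each experiment (coloured). MAF lies at 2.31 and 2.18 for NIC1 over DNMAML, and the value of MAFG farthest from 0 in any experiment is -0.21.

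The differences of MAF with IL-4 were smaller than those between constructs. Its log2 change was -0.31 ± 0.24 in IRES, -0.39 ± 0.23 in NIC1 and -0.25 ± 0.26 in DNMAML, and 8 of 9 within-experiment differences were below 0. The exception was 0.013 in DNMAML experiment 3. No member was called in any IL-4 response, over 2.93% of all genes called in IRES, 3.05% in NIC1 and 3.28% in DNMAML. Under the block (9.04%, 8.80% and 9.95% of all genes called), MAF and MAFK were called in NIC1, in opposite directions. The difference in IL-4 response between constructs was -0.08 ± 0.33 for NIC1 minus IRES, 0.06 ± 0.35 for DNMAML minus IRES and -0.14 ± 0.35 for NIC1 minus DNMAML. Without the pair of libraries with most genes detected, the DNMAML minus IRES value was -0.36.

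MAFF, the small member known as quickly induced by stress and cytokines, had its highest group means in NIC1, both without and with IL-4. Unstimulated, MAFF was at 5.08, 11.5 and 8.96 CPM in IRES, at 11.7, 16.5 and 10.4 in NIC1, and at 5.53, 11.2 and 8.05 in DNMAML, in the order of experiments 1, 2 and 3. After IL-4 it was at 7.55, 13.3 and 8.53 CPM in IRES, 12.6, 17.9 and 12.5 in NIC1, and 5.93, 9.54 and 7.57 in DNMAML. Experiment 2 was highest in 6 of 6 groups, and groups overlapped in all comparisons except NIC1 against DNMAML with IL-4. Within each experiment NIC1 lay above both other constructs, in 12 of 12 differences. Each NIC1 library is used against both IRES and DNMAML, so these differences are not independent.

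The fitted MAFF change for NIC1 against IRES was 0.59 ± 0.32 without IL-4 and 0.55 ± 0.32 with it. Against DNMAML it was 0.64 ± 0.32 and 0.90 ± 0.32. None of the 4 was called, where 0.233%, 0.200%, 1.65% and 1.44% of all genes were called, in the order given. All 4 were called with the experiment number as a block, where 5.37%, 5.44%, 13.8% and 12.6% of all genes were. DNMAML and IRES differed by -0.05 ± 0.32 and -0.35 ± 0.32. The IL-4 responses of MAFF were 0.20 ± 0.32 in IRES, 0.16 ± 0.31 in NIC1 and -0.11 ± 0.33 in DNMAML, each smaller than its standard error. Under the block they were 0.21 ± 0.15, 0.16 ± 0.13 and -0.09 ± 0.15, and none was called.

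MAFG, the most abundant small member, hardly varied. Its 18 libraries lay between 94.0 and 118 CPM, and group means ran from 103 ± 7.47 in IL-4-treated IRES to 113 ± 4.79 in unstimulated DNMAML. Libraries of those groups did not overlap. The largest fitted change in the 9 comparisons was -0.11 ± 0.074, for IL-4 in IRES, where the treated libraries (94.0, 106 and 108 CPM) lay below the unstimulated ones (108, 109 and 115) at 107.65 against 107.79 at the nearest. Between NIC1 and DNMAML the change was -0.06 ± 0.074 without IL-4 and 0.0028 ± 0.074 with it. MAFG was called in no comparison, by either model.

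MAFK, which also pairs with NFE2-type factors, showed its clearest pattern by experiment. It was at 40.2, 60.4 and 44.7 CPM in unstimulated IRES, 43.1, 61.4 and 45.99 in NIC1, and 45.2, 60.8 and 46.2 in DNMAML. With IL-4 it was at 48.3, 63.5 and 55.7 CPM in IRES, 56.7, 72.5 and 49.8 in NIC1, and 50.9, 61.4 and 52.8 in DNMAML. Experiment 2 was highest in 6 of 6 groups, with a mean of 63.3 CPM against 47.4 and 49.2 in experiments 1 and 3. Groups overlapped in all 9 comparisons.

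MAFK lay higher after IL-4 within all 3 experiments of all 3 constructs, by 0.014 to 0.39 on the log2 scale. The fitted changes were 0.20 ± 0.18 in IRES, 0.25 ± 0.18 in NIC1 (called under the block alone) and 0.12 ± 0.18 in DNMAML. Between constructs the MAFK change ran from -0.02 ± 0.18 to 0.12 ± 0.18.

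Per kb of exon, which lets genes be compared, MAFG averaged 20.9 CPM, MAFK 11.96, MAF 1.86 and MAFF 1.83. The summed small members came to 33.6 ± 2.94 CPM per kb in unstimulated IRES, 34.4 ± 3.85 in NIC1 and 34.6 ± 1.70 in DNMAML, and to 33.9 ± 3.43, 36.9 ± 2.74 and 34.6 ± 2.03 with IL-4. Their spreads overlapped. MAFG made up 57.1% to 63.4% of that sum by group, MAFK 32.1% to 36.8% and MAFF 3.93% to 6.88%. With the sum level and MAF varying, small MAF transcripts outnumbered MAF 9.21 ± 1.11 to 1 in unstimulated NIC1, 19.9 ± 4.55 to 1 in IRES and 46.7 ± 6.56 to 1 in DNMAML. With IL-4 the ratios were 13.3 ± 2.90, 24.8 ± 5.70 and 57.5 ± 14.2.

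**Figure D3:**
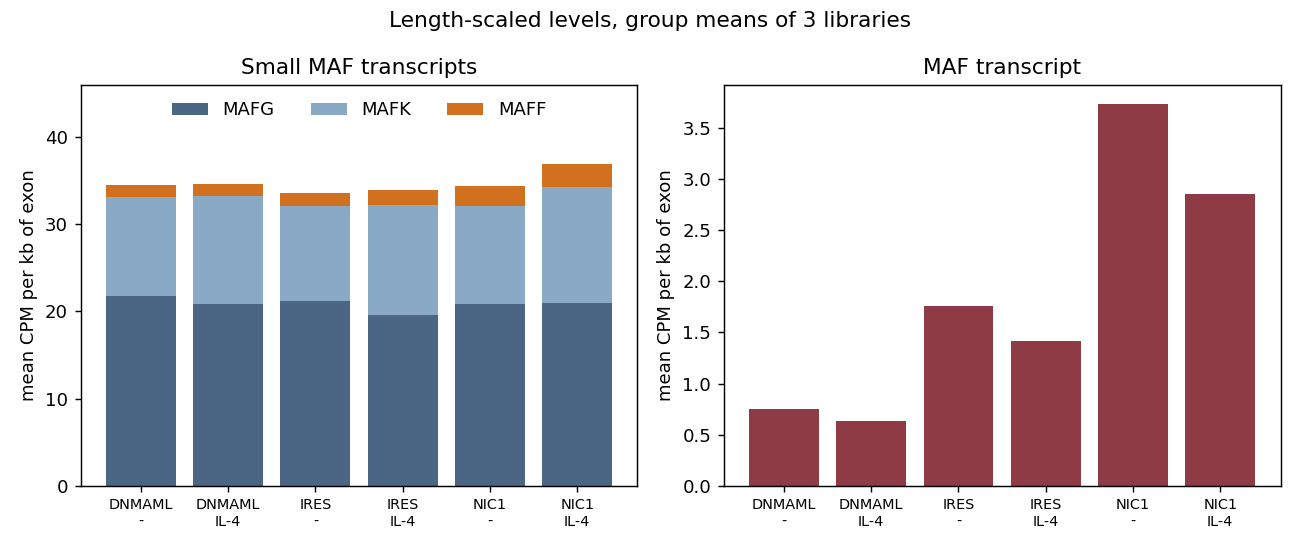
Mean CPM per kb of exon (vertical axes, from 0; 3 libraries a group) of the small members, stacked (left), and of MAF (right), by group. The small sum stays between 33.6 and 36.9, while MAF runs from 0.630 to 3.74.

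NRL, a large MAF known from the retina and not a member, was low, at 2.71 to 4.13 CPM, and MAFA had at most 6 counts in a library and was not tested.

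Of 14 partner genes, a list of bZIP factors and of KEAP1, which marks NFE2L2 for degradation, all were tested. IL-4 changed 3 of them in IRES, 2 in NIC1 and 1 in DNMAML, where 2.93%, 3.05% and 3.28% of all genes were called. FOS, a partner in AP-1 that large MAF proteins can also bind, fell in all 3. It went from 79.8 ± 12.4 to 30.6 ± 3.12 CPM in IRES, a fall by 1.38 on the log2 scale (SE 0.20, adjusted p = 0.000465), and fell by 1.14 in NIC1 (SE 0.20, 0.00281) and 1.37 in DNMAML (SE 0.19, 0.000433). BACH2, a repressor that pairs with small MAFs, fell by 1.18 in IRES (SE 0.30, 0.0419) and by 1.14 in NIC1 (SE 0.29, 0.0414). In DNMAML its change was -0.81 ± 0.29 (0.229, blocked 0.00928).

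Both BACH2 calls were fragile. The IRES call was lost without unstimulated IRES replicate 2 or 3 or treated replicate 1 or 2 (adjusted p up to 0.239), and the NIC1 call without any compared library except unstimulated NIC1 replicate 1 (up to 0.168). NFE2, the blood-cell partner of the small MAFs, was the third gene called in IRES and is named after its values were seen, because its libraries overlapped. NFE2 was at 1.65 ± 1.29 CPM unstimulated and 9.11 ± 6.47 after IL-4 and rose by 2.46 ± 0.62 (adjusted p = 0.0438). In NIC1 the change was 2.63 ± 0.71 (0.0643, blocked 0.000128) and in DNMAML 2.25 ± 0.60 (0.0581, blocked 2.28e-05).

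NFE2L2, the main activator that uses small MAF partners, and BACH1 and KEAP1 were not called in any of the 9 comparisons. Under the block NFE2L2 was called with IL-4 in DNMAML (blocked change -0.21 ± 0.064, adjusted p = 0.0365). BACH1 was called under it with IL-4 in DNMAML (blocked change -0.19 ± 0.045, adjusted p = 0.00603) and NIC1 (-0.15 ± 0.046, 0.0488), and in unstimulated NIC1 against DNMAML (-0.14 ± 0.045, 0.0438). JUN changed by 0.77 in IRES, 0.71 in NIC1 and 0.81 in DNMAML with IL-4 (adjusted p = 0.126, 0.172 and 0.0969), and was called in each under the block (p between 6.88e-08 and 4.90e-07). Under the block the list had 4, 5 and 7 genes called with IL-4 in IRES, NIC1 and DNMAML (9.04%, 8.80% and 9.95% of all genes). The list's median change with IL-4 was -0.05, -0.02 and -0.10, against -0.0049, -0.011 and -0.0092 over all genes. No partner was called in the 6 construct comparisons, against 3, 4, 1, 1, 7 and 4 under the block (NIC1 against IRES, DNMAML against IRES, then NIC1 against DNMAML, each without and with IL-4), where 5.37%, 5.44%, 0.146%, 0.0931%, 13.8% and 12.6% of all genes were called. FOS was among them, higher in DNMAML than in IRES by 0.43 ± 0.075 in unstimulated cells (blocked change and adjusted p = 0.0294) and 0.44 ± 0.085 after IL-4 (blocked, 0.0468), against an adjusted p of 1 for both in the model with no block.

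Of 24 genes known to carry AREs or MAREs, all tested, 2 were called in each IL-4 response, GCLC lower and SLC7A11 higher, where 2.93%, 3.05% and 3.28% of all genes were called in IRES, NIC1 and DNMAML. GCLC, the catalytic subunit of glutathione synthesis, went from 243 ± 31.5 to 102 ± 25.9 CPM in IRES and fell by 1.26 on the log2 scale (SE 0.21, adjusted p = 0.00242). It fell by 1.34 in NIC1 (SE 0.21, 0.00149) and by 1.15 in DNMAML (SE 0.21, 0.00515). SLC7A11, which imports the cystine that glutathione needs, rose by 0.85 in IRES (SE 0.17, 0.00733), 0.98 in NIC1 (SE 0.16, 0.00214) and 0.80 in DNMAML (SE 0.17, 0.0118, lost without unstimulated DNMAML replicate 1 or treated replicate 3, up to 0.0677). These 2 genes of the same pathway moved in opposite directions. The list's medians were -0.04, -0.07 and -0.03 in IRES, NIC1 and DNMAML, and under the block 4, 3 and 5 genes were called (9.04%, 8.80% and 9.95% of all genes).

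Between constructs, ARE and MARE genes were called between NIC1 and DNMAML and in no other comparison of this model. With IL-4, HMOX1, the haem-degrading enzyme that BACH1 and small MAFs repress, was at 14.8 ± 1.53 CPM in NIC1 and 6.45 ± 0.393 in DNMAML. It was higher by 1.20 ± 0.21 (adjusted p = 0.00754, and 0.0522 without treated DNMAML replicate 1). SLC7A11 was at 84.0 ± 7.55 against 50.8 ± 2.98 CPM, higher by 0.73 ± 0.16 (0.0368), a call lost on leaving out any 1 of the 6 libraries compared (up to 0.172). Without IL-4, ABCC1, an export pump, was lower by 0.24 (SE 0.05, 0.0212) in NIC1, a call lost without any of the compared libraries except NIC1 replicate 2 (up to 0.104).

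NQO1, a quinone reductase, was called in no comparison, and under the block in unstimulated NIC1 against DNMAML (0.36 ± 0.29, adjusted p = 0.655, blocked 0.0324). Under the block the 6 construct comparisons, in the order given above, had 2, 4, 0, 0, 8 and 7 of the 24 genes called, against 5.37%, 5.44%, 0.146%, 0.0931%, 13.8% and 12.6% of all genes. GCLM, the regulatory partner of GCLC, was among these in NIC1 against DNMAML: 243 ± 15.7 against 133 ± 38.4 CPM without IL-4 (0.87 ± 0.24, adjusted p = 0.0968, blocked 0.000925). ME1 went the other way, at 9.95 ± 1.30 CPM in NIC1 against 14.4 ± 3.06 in DNMAML without IL-4 (-0.53 ± 0.21, adjusted p = 0.264, blocked 0.00214). GCLM and ME1 are named after their values were seen. The calls under the block in NIC1 against IRES were 0 higher and 2 lower without IL-4, and 3 higher and 1 lower with it. Against DNMAML they were 6 higher and 2 lower, then 4 higher and 3 lower.

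**Figure D4:**
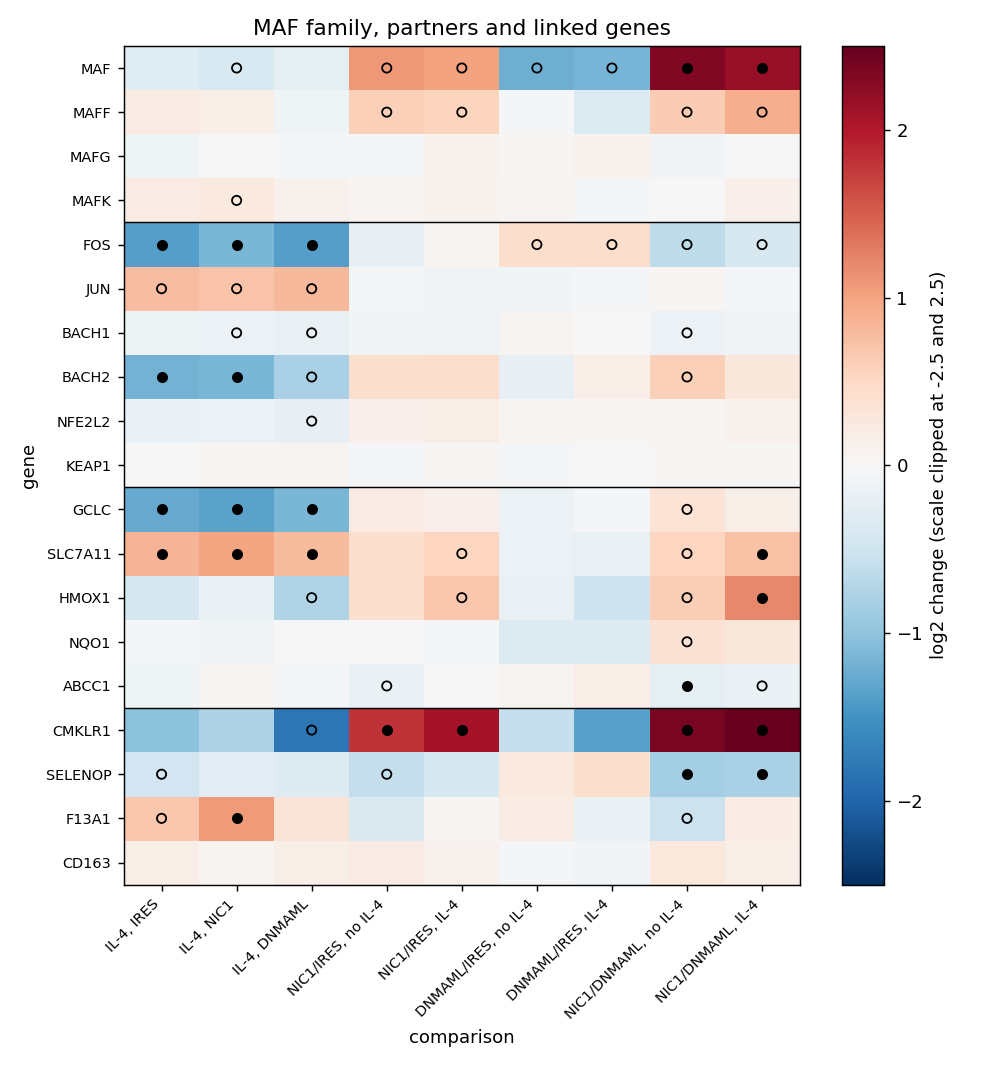
Log2 change (colour, clipped at 2.5 either way) of the 4 members and of genes of the partner, ARE and MARE, and MAF-linked lists (rows) in 9 comparisons (columns; a slash puts the first construct over the second). Filled dots mark an adjusted p under 0.05, open dots calls made with the experiment block alone; FOS, GCLC and SLC7A11 carry filled dots in all 3 IL-4 columns, and MAF in both NIC1/DNMAML columns.

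Many genes linked to MAF in tissue macrophages were not measurable here. Of 20 such genes, 11 were too low to test, among them IL10 (at most 0.80 CPM), MRC1, which encodes the mannose receptor (at most 2 counts in a library), LYVE1, FOLR2 and the complement genes C1QA, C1QB and C1QC (C1QB had no count in any library). CD163, the haemoglobin scavenger receptor, was at 10.3 ± 2.13 CPM in unstimulated IRES, 11.9 ± 1.47 in NIC1 and 9.91 ± 1.46 in DNMAML and was called in no comparison.

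The tested genes of this list did not share a direction between constructs. Between NIC1 and DNMAML, 1 of 9 was higher and 1 lower in each IL-4 state, where 1.65% and 1.44% of all genes were called without and with IL-4. CMKLR1, the chemerin receptor, was higher in unstimulated NIC1 (3.14 ± 0.325 CPM) than in DNMAML (0.597 ± 0.185) by 2.38 ± 0.37 (adjusted p = 0.00315). It was also higher than in IRES (0.885 ± 0.296 CPM) by 1.81 ± 0.35 (0.0440), a call lost on leaving out any 1 of the 6 libraries (up to 0.322). With IL-4 it was called in both comparisons too (0.00118 and 0.0479), at 78 counts over the NIC1 libraries, 18 in IRES and 7 in DNMAML, levels under the minimum set for naming genes.

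SELENOP, a secreted selenium carrier, was lower in NIC1 than in DNMAML, by 0.85 without IL-4 (SE 0.18, adjusted p = 0.0246), at 6.07 ± 0.350 against 10.98 ± 1.38 CPM, and by 0.80 with it (SE 0.18, 0.0372). Those calls were lost without any compared library except DNMAML replicate 2 (up to 0.129 and 0.207). F13A1, a transglutaminase subunit known to rise with IL-4 in macrophages, rose with IL-4 in NIC1 by 1.06 ± 0.19 (0.00366), from 32.0 ± 5.15 to 66.9 ± 6.45 CPM, and was the single gene of the list called in an IL-4 response. Its change was 0.68 ± 0.19 in IRES (0.0717, blocked 0.000209), where treated libraries also lay above unstimulated ones, and 0.33 ± 0.19 in DNMAML (0.630), and no difference between these responses was called.

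MERTK, the receptor for engulfing dying cells, is named after its values were seen. It was at 36.0 ± 9.42 CPM in unstimulated NIC1, 24.7 ± 6.28 in IRES and 21.0 ± 4.15 in DNMAML. Its differences, 0.54 ± 0.25 from IRES (adjusted p = 0.703, blocked 0.000147) and 0.78 ± 0.26 from DNMAML (0.169, blocked 1.01e-06), were called under the block alone. SIGLEC1, also named after its values were seen, went the other way under the block. Its blocked changes in NIC1 without IL-4 were -1.14 ± 0.21 from IRES and -1.725 ± 0.21 from DNMAML (adjusted p = 0.0062 and 8.58e-05). With IL-4 they were -1.05 ± 0.20 and -1.33 ± 0.20 (0.0074 and 0.000564). Its unstimulated IRES libraries alone ran from 0.866 to 54.9 CPM. Under the block the list had 4, 3 and 2 genes called with IL-4 in IRES, NIC1 and DNMAML, and 4, 4, 0, 0, 6 and 5 in the construct comparisons, of 9 tested and beside the shares of all genes given for the partners. In NIC1 against IRES these were 2 higher and 2 lower without IL-4, and 3 higher and 1 lower with it. Against DNMAML they were 3 higher and 3 lower, then 3 higher and 2 lower.

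The difference in IL-4 response between constructs was called for no gene of any list and no gene at all. The shares called were 0 for NIC1 minus IRES, DNMAML minus IRES and NIC1 minus DNMAML, and 0 for each under the block. Genes with an unadjusted p under 0.05 in edgeR numbered 121, 98 and 214 (366, 237 and 610 under the block), and DESeq2 called 0, with 73, 52 and 154 at an unadjusted p under 0.05.

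The genes whose pattern was most like each member's were found by Pearson r over the 18 libraries among 11099 genes, after removing each experiment's mean. The libraries share constructs and IL-4 treatment, so these values are a description. MAF was most like CD36, a scavenger receptor (r = 0.976), PLVAP (0.971) and PAK1, a kinase (0.970). CD36 was at 43.4 ± 16.5 CPM in unstimulated NIC1, 24.2 ± 7.68 in IRES and 14.3 ± 0.858 in DNMAML, the order seen for MAF. MAFF was most like HOMER1 (0.958), TPM3 (0.945) and the immediate early gene IER2 (0.942).

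MAFK was most like SLC3A2, the partner chain of SLC7A11 (0.934), ADRM1 (0.910) and DPF2 (0.909). SLC3A2 was at 118 ± 10.6 CPM in unstimulated IRES and 137 ± 10.0 after IL-4. The nearest genes to MAFG, which varied least, reached only 0.824 (RHBDF1), 0.821 (PRKAR1A) and 0.804 (FRS3). Among the members themselves, MAF and MAFF had r = 0.812, while MAFG had -0.18 with MAF, -0.23 with MAFF and -0.20 with MAFK.

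Experiment left its own mark on each member. MAFG was highest in experiment 3 in 6 of 6 groups. MAF was lowest in experiment 1 in 6 of 6 and highest in experiment 3 in 5 of 6.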

How the data were processed

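The deposited files hold whole-number counts of reads per gene made by the authors, not normalized. The tools FastQC, Trimmomatic, HISAT2, HTSeq and DESeq2 and the build GRCh38.p12 are named per the submitters' processing notes; versions, settings and the strand option were not given in the sources used here. Entries naming no gene (23.8% to 30.9% of reads) were left out. Libraries of a group differed beyond counting noise (chi-square over degrees of freedom 5.68 to 50.6), so none was treated as a duplicate. Experiment 2 stood apart: pairs that held it lay at 22.8 to 50.6, and pairs of experiments 1 and 3 at 5.68 to 14.1.

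After a low-count filter (filterByExpr of edgeR 4.0.16, R 4.3.3), 15037 genes were left, all 4 members among them, and TMM scaling was applied. Contrasts were tested in edgeR by quasi-likelihood on 6 group means, with Benjamini-Hochberg adjustment over the genes of each contrast and a threshold of 0.05. Standard errors were derived from the F statistic. The test was tested on simulated data with 200 changed genes. Alternatives were DESeq2 1.42.0, no low-count filter, library size alone, the experiment number as a block (changes and standard errors beside a blocked p are those of the model with no block, unless they are called blocked), only the groups compared, leaving out the 2 libraries with most genes, and leaving out each library.

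Experiment numbers, shared across groups in the labels, paired the libraries: deviations from group means correlated in all 45 same-number pairs (r 0.206 to 0.759, median 0.466), against a median of -0.395 in 90 others. Deviations within a group sum to 0, so the negative median follows from the positive one and adds no separate evidence. Nothing in the labels says whether libraries came from separate cultures: the p-values reflect how far these libraries vary, which can be technical. Members and lists were chosen with earlier results of these data known. Named genes were, beside the members and a fixed set (NFE2L2, BACH1, KEAP1, FOS, JUN, HMOX1, NQO1, IL10, CD163, MRC1), up to 4 called genes per list and contrast with the largest change, a mean of 2 CPM or more in either group and libraries that did not overlap, and the 3 genes most like each member (mean of at least 5 CPM). Summed marker lists lay between 0.527 and 2.60 CPM for erythroid cells and megakaryocytes and between 98.8 and 192 CPM for fibroblasts and epithelium. A gene of the fixed set is not reported here.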

Additional observations from a re-analysis of the deposited data

How the results depend on the processing

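The members were chosen with these contrasts known, so their calls here are a description. Of the member calls between constructs, both of MAF, none was lost on leaving out any library. The count was 5 with DESeq2, 4 with no low-count filter and 10 with the experiment block, where the libraries of a number are paired. Counts over all genes changed too. In NIC1 against DNMAML, without and with IL-4, 248 and 216 of 15037 genes were called as reported. DESeq2 called 476 and 410 of them and the block 2082 and 1893. With no filter, 302 and 273 of 34275 were called. In NIC1 against IRES, without and with IL-4, 35 and 30 genes were called as reported, and 808 and 818 with the block. DESeq2 called 91 and 108 there, and no filter 77 and 73. In DNMAML against IRES, 0 and 0 were called as reported, and 22 and 14 with the block. DESeq2 called 2 and 1 there, as did no filter. With IL-4 in IRES, NIC1 and DNMAML, DESeq2 called 601, 601 and 625, and no filter 448, 467 and 465. Member calls with IL-4 went from 0 to 2 with the block, where the called share of all genes rose as well (from 2.93% to 9.04% in IRES, 3.05% to 8.80% in NIC1 and 3.28% to 9.95% in DNMAML). ARE and MARE calls with IL-4 went from 6 to 12 with the block, and between constructs from 3 to 6 with DESeq2, 1 with no filter, 21 with the block, and 1 to 4 on leaving out a library. MAF-linked calls with IL-4 went from 1 to 3 with DESeq2, 3 with no filter, 9 with the block, and 1 to 2 on leaving out a library. Between constructs they went from 6 to 2 with only the groups compared, 3 without the 2 libraries with most genes, 19 with the block, and 2 to 5 on leaving out a library. Partner calls with IL-4 went from 6 to 10 with DESeq2, 16 with the block, and 3 to 8 on leaving out a library; between constructs from 0 to 1 with DESeq2, 1 with no filter and 20 with the block. The cause was not tested. On leaving out a library, all-gene calls with IL-4 ran from 314 to 453 in IRES, 313 to 488 in NIC1 and 301 to 508 in DNMAML. For NIC1 against DNMAML they ran from 77 to 251 without IL-4 and 70 to 236 with it. With only the groups compared, those 2 counts were 60 and 54, and without the 2 libraries with most genes 179 and 71. Response differences stayed at 0 under each alternative. No called value changed sign. Of the 48 member changes and response differences, 24 changed sign under an alternative, each at most 0.26 in size as reported: on leaving out a library the DNMAML minus IRES response of MAF ran from -0.19 to 0.30, MAFF with IL-4 in IRES from -0.08 to 0.48, MAFF in DNMAML against IRES without IL-4 from -0.33 to 0.23, and MAFK in NIC1 against DNMAML without IL-4 from -0.19 to 0.13. MAF rested on 45 to 343 counts per library and MAFF on 70 to 244, which limits how small a difference could be seen in them.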
